A study of Mus musculus with 8 samples.

Results

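The ER stress and integrated stress response genes described here come from a list of 35 members: chaperones of the endoplasmic reticulum (ER), the sensors of misfolded protein, and the targets of the transcription factors ATF4 and CHOP. Members were found by matching their symbols to the mouse Ensembl identifiers of the count tables. Of the 35 members, 1 was in the rows, Atf3, so the results describe Atf3 and 19 further genes of the same pathways, and not the stress response as a whole. The tables used here appear incomplete: each is exactly 51200 bytes long, and 7 of the 8 stop within a line. They share 1933 gene rows, which lie on chromosome 1 where they have a symbol and hold 627 of its 1208 protein-coding genes. A gene described below as not in the rows was therefore not analysed, which says nothing of its expression or of the full tables. Atf6, the other member on chromosome 1, is not among them, and 33 members lie on other chromosomes. The 34 members not analysed here include the chaperones Hspa5, Hsp90b1, Calr, Canx, Hyou1 and Dnajb9, the sensors Ern1 and Eif2ak3, the factors Xbp1, Atf4 and Ddit3, and the ATF4 targets Trib3, Chac1, Asns and Psat1.

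RNA from cells labelled as hepatic stellate cells, which store vitamin A in the healthy liver and form scar tissue in the injured one, was sequenced in 8 libraries. Male mice with floxed AREL1 (AREL1fl/fl, called fl/fl or controls, 4 libraries) were compared with mice lacking AREL1 in stellate cells (AREL1HSC-KO, called KO, 4 libraries). The titles of all 8 libraries begin with MASH-HSC, a label that both groups share (MASH is short for metabolic dysfunction-associated steatohepatitis). AREL1 is an E3 ubiquitin ligase. Both groups received a Western diet (21% fat, 20% protein, 50% carbohydrate) from 4 weeks of age for 20 weeks and were analysed in week 24, so no library without the diet is in the comparison, and the diet's own effect on stress genes cannot be read from it. The sources used here do not name the Cre driver of the deletion. Nor do they tie each library to a mouse of its own, so the p-values below rest on a spread between libraries that may be technical. In 3 of the 4 KO libraries the genotype field numbers the gene differently from the title, and the title was followed.

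When unfolded protein builds up in the ER, the sensors IRE1, PERK and ATF6 raise chaperones, protein export and protein degradation. PERK and related kinases phosphorylate the initiation factor eIF2, which slows translation in general while the mRNA of ATF4 is translated more. ATF4 then raises genes of amino acid supply and tRNA charging, and with CHOP it raises ATF3, a short-lived basic leucine zipper factor that is also induced by many other stresses, by cytokines and by cell isolation.

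Library totals were 17619387 to 19663030 gene-assigned reads in fl/fl and 19271004 to 25165289 in KO, and the rows used held 563706 to 826127 reads. In a chi-square test of counts, fl/fl replicate 4 differed from the other controls by 3.37 to 3.53 per degree of freedom, and those differed among themselves by 1.39 to 1.82. Unmapped reads were 1.04% to 1.19% in fl/fl and 1.44% to 1.58% in KO and separated the groups, as did reads outside annotated genes, at 4.30% to 4.34% in fl/fl and 3.93% to 4.14% in KO (for both, exact permutation p = 0.0286, the smallest that 4 against 4 allows, 0.0714 after adjustment over 5 measures). The part of these shares in the results below was not tested. The labels name no batch, so genotype and any batch that runs with it cannot be told apart. No gene of the stellate cell marker list is in the rows, nor is Arel1, so neither the cell type nor the deletion was checked. The fibrillar collagen genes Col3a1 and Col5a2 reached 506 and 680 reads per 1000000 gene-assigned reads (CPM). With Dpt, the 3 myofibroblast markers in the rows summed to 1150 to 1210 CPM in controls and 1030 to 1040 CPM in KO. All 3 were lower in KO: Col3a1 and Col5a2 by log2 fold changes of -0.14 and -0.19, and Dpt, which encodes the matrix protein dermatopontin, by -1.47 (18.7 ± 2.78 CPM in controls and 6.76 ± 0.0922 CPM in KO, SD, n = 4; adjusted p = 4.21e-11 with edgeR). The part of these differences in the results below was not tested. The 3 hepatocyte markers in the rows summed to at most 0.662 CPM in any library, with 2 of them at 0 reads throughout, and 8 leukocyte markers summed to 3.81 to 4.35 CPM in controls and 3.44 to 3.97 CPM in KO. Most of that sum was Batf3, which is also on the list of ATF3 partners (2.97 CPM in controls, 3.43 CPM in KO), and Gpr35 fell from 1.03 to 0.268 CPM (74 and 24 reads, edgeR adjusted p = 4.44e-05).

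Atf3 (ENSMUSG00000026628) lies at chr1:191170296-191218039 on the minus strand in GENCODE M21 (GRCm38), where its exons overlap those of no other gene. The promoter window that RefSeq gives for it (GRCm38.p6, chr1:191183284-191183583, minus strand, 250 bases before to 50 bases after the RefSeq start) is shown because Atf3 is the member that the results turn on and because ATF4 is known to act through such windows. Capitals mark 2 matches of 8 bases.

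Atf3 promoter: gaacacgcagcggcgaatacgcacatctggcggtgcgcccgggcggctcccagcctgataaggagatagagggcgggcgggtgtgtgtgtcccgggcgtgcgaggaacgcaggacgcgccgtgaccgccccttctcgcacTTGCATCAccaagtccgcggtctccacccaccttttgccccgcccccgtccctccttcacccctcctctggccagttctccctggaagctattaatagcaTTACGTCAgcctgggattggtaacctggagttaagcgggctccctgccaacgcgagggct

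The first match, TTGCATCA, lies 110 to 103 bases before the start and reads TGATGCAA on the other strand, the C/EBP-ATF response element to which ATF4 binds with a C/EBP partner. It occurs in 294 of 32851 RefSeq promoter windows of the same length (0.895%), searched on both strands. The second, TTACGTCA, lies 10 to 3 bases before the start and reads TGACGTAA on the other strand, a variant of the cyclic AMP response element. It was added to the search after the sequence had been seen, and 0.499% of windows hold it. The full element TGACGTCA (1.79% of windows), the unfolded protein response element TGACGTGG (0.676%) and the longer ER stress response element ERSE (0.119%) have no match in the Atf3 window. The marked matches do not overlap each other. A window was available for 14 of the 19 further pathway genes, and none of those windows holds any of the 5 motifs. GENCODE M21 also lists an Atf3 transcript that begins farther upstream, whose promoter is not in this window. A match is a description of letters and shows no binding.

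Atf3 was higher in KO than in fl/fl stellate cells. Its level was 40.14, 35.74, 33.88 and 41.49 CPM in fl/fl replicates 1 to 4, from 586 to 780 reads per library. In KO replicates 1 to 4 it was 45.49, 42.7, 44.38 and 46.43 CPM, from 905 to 1112 reads. Every KO library lay above every fl/fl library, but the gap was narrow, from 41.49 CPM in fl/fl replicate 4 to 42.7 CPM in KO replicate 2. Among the controls, replicates 1 and 4 were higher than replicates 2 and 3, and the SD was larger than in the KO libraries.

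The mean was 37.81 ± 3.59 CPM in controls and 44.75 ± 1.6 CPM in KO (SD, n = 4 each). Atf3 rose 1.18-fold, by 18.0% (log2 fold change 0.24, SE 0.052, 95% interval 0.13 to 0.35; edgeR quasi-likelihood test, adjusted p = 0.000913 over 420 genes). In the same comparison 158 of the 420 genes (37.6%) changed, with 77 (18.3% of the 420) higher in KO, and the groups did not overlap in 31.4% of genes, 14.8% with KO higher and 16.7% with KO lower. Reads fell on the 2 strands in like numbers for Atf3, 404 forward and 376 reverse in fl/fl replicate 1 and 548 and 564 in KO replicate 1. The log2 fold change was 0.25 with forward-strand reads alone and 0.23 with reverse-strand reads alone. With like numbers on the 2 strands, these are in effect parts of the same reads, so their likeness is no independent check. In bulk RNA, a higher level per cell and a larger share of cells with the gene cannot be told apart.

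**Figure D1:**
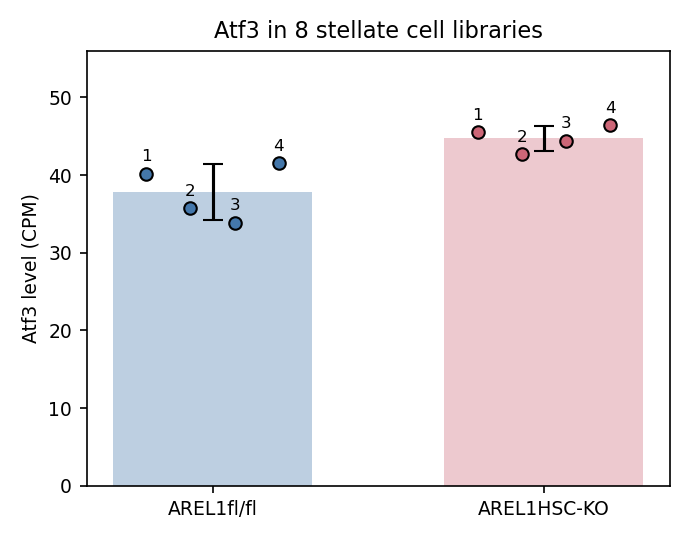
Atf3 level in CPM (y axis, from 0) in the 4 fl/fl and 4 KO libraries. Points are libraries with their replicate number, bars are means and whiskers 1 SD; the KO points lie between 42.7 and 46.43 CPM, above the highest fl/fl point at 41.49 CPM.

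The Atf3 call did not rest on a single library. Leaving out each library in turn gave log2 fold changes of 0.19 (without fl/fl replicate 3, the lowest library) to 0.28 (without fl/fl replicate 4, the library that stood apart). The adjusted p was 0.00463 and 4.19e-09 in these 2 fits, which were also the highest and lowest over the 19 alternatives tried (edgeR in both). The size was therefore smallest without the lowest control library and largest without the control library nearest to KO. The other scalings, tools, filters and count columns gave 0.23 to 0.29.

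**Figure D2:**
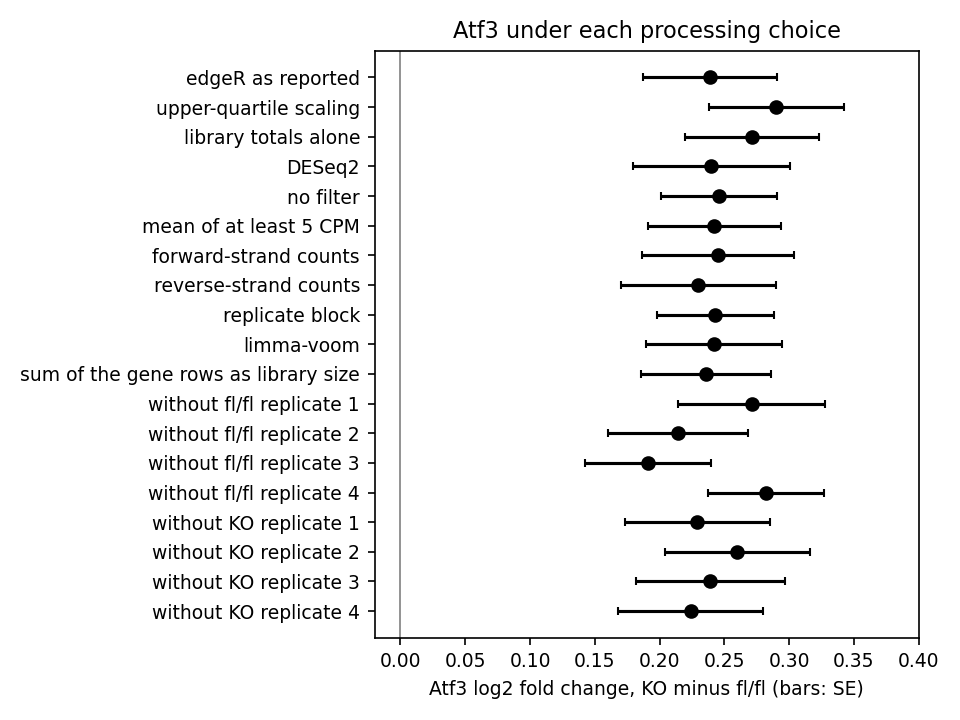
Atf3 log2 fold change, KO minus fl/fl (x axis), as reported and under each alternative that refits the data (y axis). Points are fitted values and bars 1 SE; every value lies above 0, from 0.19 without fl/fl replicate 3 to 0.29 with upper-quartile scaling.

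Besides the members, 229 genes were listed by role in the same pathways. Of these, 19 were in the rows, and the low-count filter kept all 19. In KO 8 of them rose (42.1%, against 18.3% of all genes tested) and 3 fell (15.8%, against 19.3%), and 8 did not pass the test. These counts cover all 19, of which 17 are described one by one. Their median log2 fold change was 0.056, beside 0.0034 over all 420 genes, with single values from -0.38 to 0.22. The balance depended on scaling: with upper-quartile scaling 12 rose and 1 fell (beside 28.6% and 12.4% of all genes), and with library totals alone 9 rose and 1 fell (beside 23.8% and 15.5%), while the median of all genes moved to 0.055 and 0.036. Without fl/fl replicate 4 the counts were 8 and 3, beside 22.2% and 22.4% of all genes. Without fl/fl replicate 2, 7 rose and 1 fell, beside 14.8% and 16.6%. These are counts of the genes that happen to be in the rows, a small part of each list. The lists were chosen with earlier results of these data known, so the counts describe these genes and test nothing about the pathways. The 420 genes also include genes with few reads. Among genes with a mean of at least 5 CPM, 22.2% rose and 22.8% fell.

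Among genes of protein folding in the ER, Qsox1 fell and Uggt1 rose slightly. Qsox1, a secreted and Golgi enzyme that forms disulfide bonds, ranged over 53.63 to 59.95 CPM in the fl/fl libraries and 43.21 to 44.22 CPM in the KO libraries, with the groups apart. Qsox1 fell by 22.9% (log2 fold change -0.38, SE 0.039, edgeR adjusted p = 1.77e-08), in the opposite direction to Atf3. Its exons overlap those of Gm37539 on the other strand. Uggt1, which tags misfolded glycoproteins so that calnexin and calreticulin bind them again, went from 218.5 ± 2.4 to 228.3 ± 4.73 CPM (SD, n = 4), a rise of 4.51% (edgeR adjusted p = 0.0419). Every KO library lay above the fl/fl libraries, from 222.1 CPM against at most 221.1. The Uggt1 call was lost under 11 of 19 alternatives, among them DESeq2, reverse-strand counts and the removal of fl/fl replicate 1, 2 or 3 or of KO replicate 1, 2 or 4 (adjusted p 0.000771 to 0.486 over the alternatives). Tor3a, an ER-resident ATPase of the torsin family, had means of 62.05 ± 2.22 and 64.52 ± 0.577 CPM and did not pass (log2 fold change 0.056, 95% interval -0.016 to 0.13; -0.019 with forward-strand counts). Tor3a passed with upper-quartile scaling (log2 fold change 0.107, edgeR adjusted p = 0.0192) and with reverse-strand counts (0.126, adjusted p = 0.0389).

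At the entry of proteins into the ER, the 3 genes in the rows, of 37 listed, all changed, in both directions, beside 37.6% of all genes tested. Tram2, a translocation partner known for its part in collagen synthesis, was at 36.12, 35.85, 31.97 and 35.89 CPM in fl/fl replicates 1 to 4 and at 43.36, 39.23, 39.67 and 38.58 CPM in KO replicates 1 to 4. The groups did not overlap, and fl/fl replicate 3 was low, as it was for Atf3. Tram2 rose 15.1% (log2 fold change 0.20, SE 0.048, edgeR adjusted p = 0.00136). Its paralog Tram1, at 113.4 ± 8.15 CPM in the controls and 103.6 ± 2.96 CPM in KO, fell by 8.77% (edgeR adjusted p = 0.0113), with overlapping groups, since fl/fl replicate 4 (101.9 CPM) lay among the KO libraries. The Tram1 call was lost without fl/fl replicate 2 (edgeR adjusted p = 0.0709), with upper-quartile scaling (0.132) and with library totals alone (0.0521). These lay within a range of 6.79e-09 to 0.132, and the call was also lost at a threshold of 0.01. Tmco1, a channel that releases calcium from an overfilled ER, rose 12.2% from 74.91 ± 3.61 to 83.92 ± 1.52 CPM (edgeR adjusted p = 0.000432), and its call held under all 19 alternatives, as did that of Tram2.

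Of the genes that clear misfolded protein from the ER, 2 were in the rows. Edem3, a mannosidase that marks glycoproteins for degradation, ranged over 76 to 81.04 CPM in the fl/fl libraries and 82.2 to 87.58 CPM in the KO libraries. It rose 8.5% (log2 fold change 0.12, SE 0.033, edgeR adjusted p = 0.00611), with no overlap between the groups. Ubxn4, which anchors the extracting ATPase p97 at the ER, stood at 180.8 ± 4.84 and 175.9 ± 2.88 CPM and did not pass (log2 fold change -0.040, 95% interval -0.094 to 0.015; 0.011 with upper-quartile scaling).

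Of the listed stress transducers and their regulators, a phosphatase subunit and an initiation factor were in the rows. Ppp1r15b, the constitutive partner that directs phosphatase 1 to eIF2, had a mean of 189.1 ± 2.65 CPM in controls and 191.6 ± 3.95 CPM in KO and did not pass (log2 fold change 0.019, 95% interval -0.033 to 0.072), although it passed with upper-quartile scaling (0.071, adjusted p = 0.0385). Eif2d, a factor for non-canonical initiation and ribosome recycling, ranged over 55.85 to 64.62 CPM in the fl/fl libraries and 66.08 to 69.56 CPM in the KO libraries. It rose 12.6% (log2 fold change 0.17, SE 0.039, edgeR adjusted p = 0.00105), and the groups did not overlap. Exons of Eif2d overlap those of Rassf5, and exons of Ppp1r15b those of Gm26616, each on the other strand. In counts made without strand, a read on both genes is ambiguous and counted for neither, where the annotation used for counting holds both.

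The 2 transcription factors in the rows that are relatives or partners of ATF3 did not pass. Batf3, a leucine zipper factor that pairs with JUN as ATF3 can, was low, with 2.57 to 3.43 CPM in fl/fl libraries and 2.87 to 3.78 CPM in KO libraries (log2 fold change 0.22, SE 0.14). Its 95% interval, -0.074 to 0.52, covers 0, and the value was 0.069 with forward-strand and 0.39 with reverse-strand counts. Creb1, which binds cyclic AMP response elements, stood at 77.02 ± 1.48 and 73.61 ± 2.22 CPM (log2 fold change -0.067, 95% interval -0.13 to 0.0016).

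Among aminoacyl-tRNA synthetases, which charge tRNAs and many of which are ATF4 targets, Eprs rose in the cytosolic group. Eprs, the glutamyl-prolyl enzyme, was at 610, 622.9, 614.4 and 657.6 CPM in fl/fl replicates 1 to 4 and at 681.4, 678.8, 677.2 and 669.8 CPM in KO replicates 1 to 4. The groups did not overlap, and fl/fl replicate 4 was the control nearest to KO, as for Atf3. Eprs rose 8.1% (log2 fold change 0.11, SE 0.023, edgeR adjusted p = 0.00042). Dars and Farsb did not pass, with log2 fold changes of 0.028 (95% interval -0.031 to 0.087) and 0.045 (-0.0081 to 0.098), although the groups did not overlap for Farsb (at most 169.8 CPM in fl/fl, at least 170.3 in KO). Exons of Farsb overlap those of Sgpp2 on the other strand. The Farsb difference passed with library totals alone and under upper-quartile scaling, and that of Dars with upper-quartile scaling.

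Of the mitochondrial synthetases, Mars2 rose 11.1% (24.92 ± 1.61 to 27.63 ± 0.356 CPM, SD, n = 4, edgeR adjusted p = 0.0212) and Iars2 rose 7.32% (136.1 ± 3.31 to 146 ± 3.64 CPM, edgeR adjusted p = 0.0051). The groups overlapped in neither gene. Mars2 lost its call with DESeq2, with forward-strand counts, when fl/fl replicate 1 was left out (adjusted p = 0.135) and when KO replicate 2 was left out (0.066), within a range of 0.0026 to 0.313. Iars2 lost its call with forward-strand counts (0.203, within 7.81e-05 to 0.203), and its exons overlap those of Rab3gap2 on the other strand. No gene of the list of further ATF4, CHOP and ATF3 targets, such as Sesn2, Gdf15 and Gadd45a, was in the rows.

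**Figure D3:**
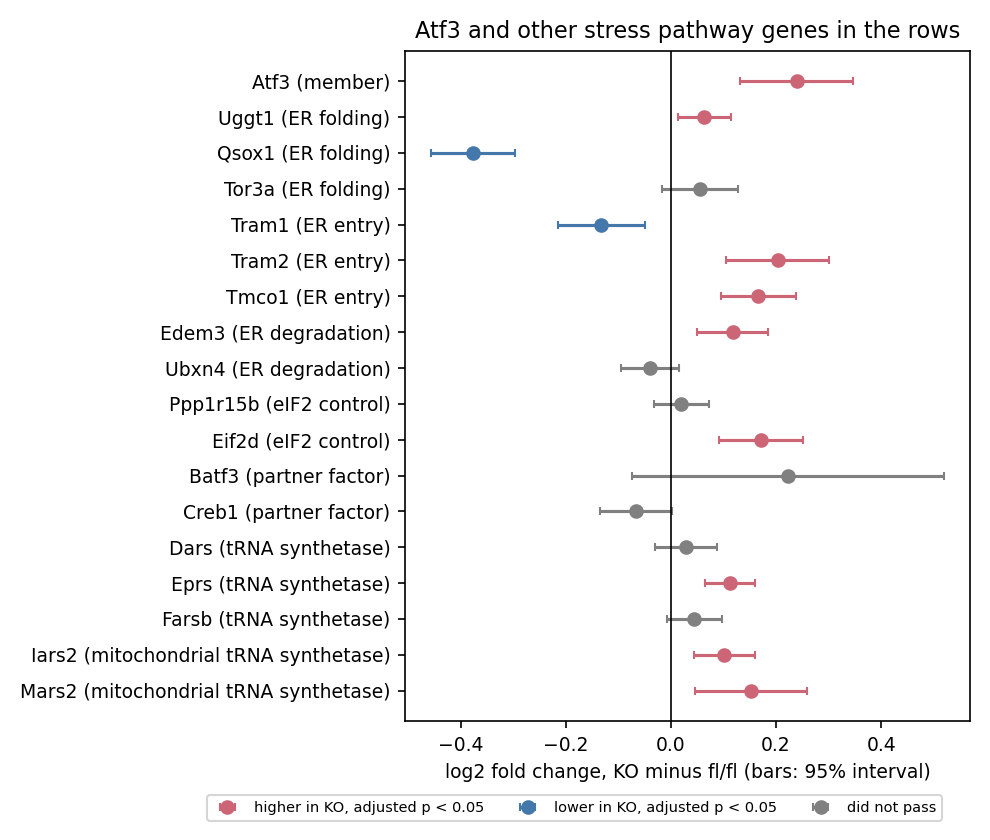
Log2 fold change, KO minus fl/fl (x axis), of Atf3 and 17 of the 19 further pathway genes (y axis, with the role of each). The role shown as eIF2 control stands for the list of stress transducers and their regulators. Points are fitted values and bars 95% intervals; Atf3 at 0.24 and 8 further genes passed the test as higher, and Qsox1 and Tram1 passed as lower.

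The genes whose profile over the 8 libraries was nearest to that of Atf3 were Ppp1r12b, Lamc1, Sertad4, Mcm3 and Nop58. Nearness was measured as the root mean square difference in log2 CPM after each gene was centred on its own mean, over 320 genes with a mean of at least 5 CPM. It was 0.065, 0.066, 0.068, 0.068 and 0.072 for these 5 genes in that order, where the median gene stood at 0.165. None is on the stress lists. Ppp1r12b, a targeting subunit of myosin phosphatase, ranged over 66.95 to 81.22 CPM in the fl/fl libraries and 83.46 to 88.95 CPM in the KO libraries and rose 19.9%. Lamc1, the laminin gamma 1 chain, rose 18.5%, Mcm3, a subunit of the replicative helicase, 15.3%, and Nop58, a core protein of box C/D small nucleolar particles, 15.7%. Sertad4 rose 14.7%, and its groups overlapped, since fl/fl replicate 4 (32.74 CPM) exceeded KO replicate 4 (32.42 CPM). The 5 rises passed the test (edgeR adjusted p from 2.58e-08 for Lamc1 to 0.00283 for Sertad4). Exons of Ppp1r12b, Sertad4 and Nop58 overlap those of Gm28892, Gm15867 and Gm26293, respectively. Reads on both genes of a pair are ambiguous and counted for neither, where the annotation used for counting holds both. In each of the 5 genes, as in Atf3, fl/fl replicate 4 was the highest control library. Atf3 differed from them in fl/fl replicate 1, which for Atf3 was close to replicate 4. Genes that change by a like amount between the groups are near by this measure whatever their function. The 5 genes were picked for their likeness to Atf3 in these same 8 libraries. Their rises, and the high fl/fl replicate 4, therefore follow largely from that choice and are no separate evidence.

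**Figure D4:**
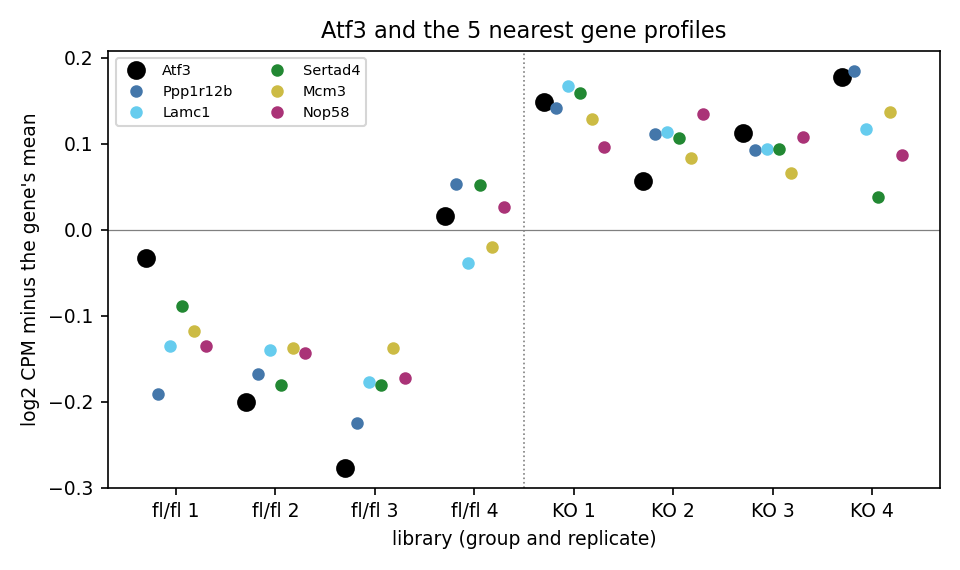
Level of Atf3 (large black points) and of the 5 genes with the nearest profile in each library (x axis), as log2 CPM minus the mean of the gene over the 8 libraries (y axis). All KO points lie above 0, and in fl/fl replicate 4 the points lie near 0, above those of fl/fl replicates 2 and 3.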

How the data were processed

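The authors deposited 1 table of raw read counts per gene for each of the 8 libraries. Per the labels' protocols, stellate cells were collected from an OptiPrep gradient after pronase and collagenase digestion, and stranded mRNA libraries were made. Tools named in the submitters' processing notes are fastp, STAR 2.7.10a and DESeq2 1.38.0. They name 2 builds, GRCm38 and GRCm39, and the annotation used for counting was not given in the sources used here. The tables as analysed are each 51200 bytes long and appear incomplete; in 7 an unfinished last line was left out. Genes beyond these rows were not analysed here. Of the 1933 shared rows, 1830 had a GENCODE M21 symbol. Although the protocols name stranded libraries, reverse-strand reads were 0.985 to 1.02 times the forward-strand reads in the rows. Either-strand counts were therefore used. The rows hold 3.2% to 3.28% of a library, so library sizes were taken from the summary lines as a lower limit of gene-assigned reads (the upper limit is 2.51% to 2.65% higher).

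Counts were tested in R 4.3.3 with edgeR 4.0.16 (filterByExpr, which kept 420 genes, TMM, robust quasi-likelihood F test, Benjamini-Hochberg adjustment over 420 genes, threshold 0.05). CPM refer to the TMM-adjusted library size, and SE come from the F statistic. The TMM factors came from the 420 kept genes alone. They separated the groups, at 0.9804 to 0.9955 in fl/fl and 1.004 to 1.02 in KO. The alternative with library totals alone leaves these factors out. The script was also run on simulated counts with the same relative spread set for every gene. How well small changes were recovered there is not reported here. Alternatives used DESeq2 1.42.0, limma 3.58.1, other scalings, filters and count columns, the replicate number as a block, and each library left out in turn. Libraries of a group differed beyond sampling noise in every pair (largest chi-square p = 2.21e-07 in fl/fl and 2.59e-07 in KO), so none was counted as a duplicate. Members and lists were chosen with earlier results of these data known. Named genes are the members and list genes in the rows and, for Atf3, the 5 nearest profiles; 2 list genes and 1 marker gene are not reported here.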

Additional observations from a re-analysis of the deposited data

Results flagged for a closer look

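In groups of 4 libraries, a library was picked out where its distance from the next library, as a share of the range, was above Dixon's 95% critical value. This was found 3 times over 50 groups (Atf3, the 19 pathway genes and the 5 genes with the nearest profiles, in both genotypes), where chance gives about 1 in 20, or 2.5. Tram2 stood at 31.97 CPM in fl/fl replicate 3, against 35.85 to 36.12 CPM in the other fl/fl libraries. Farsb stood at 176 CPM in KO replicate 4, against 170.3 to 171.2 CPM in the other KO libraries. Mcm3 stood at 402.9 CPM in fl/fl replicate 4, against 371.3 to 376.5 CPM in the others. No Atf3 value was picked out in either group.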

How the results depend on the processing

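The Atf3 rise kept its direction and its side of the threshold under all 19 alternatives, and the counts of changed genes (158) and of changed pathway genes (11) stayed within 1.5 times. Not all 19 are independent checks. The forward-strand and reverse-strand counts are parts of the same reads at lower depth, and adjusted p under 0.01 is the same fit at a stricter threshold. Of 455 values for 24 other genes (the 19 pathway genes and the 5 nearest profiles), 423 kept direction and call, 24 lost a call, 6 gained one and 2 changed sign: Tor3a with forward-strand counts (-0.019) and Ubxn4 with upper-quartile scaling (0.011), neither of them called. In place of 77 genes higher and 81 lower, upper-quartile scaling gave 120 and 52, and adjusted p under 0.01 left 48 higher. Pathway genes lower in KO numbered 1 in place of 3 with upper-quartile scaling and with library totals alone, beside 12.4% and 15.5% of all genes. Without 1 library they numbered 1 to 3, beside 16.6% to 22.4% of all genes. The cause was not tested. The replicate numbers gave no sign of pairing: same-numbered libraries correlated at -0.164, 0.13, -0.11 and -0.04 in their deviations from group means, and 0 of 8 correlated best with their own number. With 4 libraries in each group, this check cannot exclude pairing. With the replicate number as a block, 150 genes and 10 pathway genes changed, and the Atf3 log2 fold change was 0.24 (edgeR adjusted p = 0.000135). Depth limits Batf3 most, with 212 reads over the 4 fl/fl libraries and 312 over the 4 KO libraries. Intervals cover the spread between these libraries only.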
